A study of Arabidopsis thaliana with 12 samples.

Results

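The 200 brightest probe sets of ripening wild-type siliques were taken from the ATH1 array of *Arabidopsis thaliana*. They were the probe sets with the highest mean log2 GC-RMA intensity over the 3 L*er* arrays, out of 21685 eligible probe sets and 22810 on the array. Array controls and the 1061 probe sets of the _s_at and _x_at kinds, whose probes can bind several transcripts, were not eligible. The L*er* values chose the members, so their brightness in L*er* is a description and not a result. GC-RMA gives a linear intensity for each probe set, and this brightness also depends on how well its probes bind, so the ranks are not an order of transcript numbers.

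Siliques, the seed pods, were harvested whole at 18 to 19 days after pollination, frozen, and hybridised as 3 biological replicates per genotype. The genotypes were *hub1-2* (labelled *rdo4*), *rdo2-1*, *rdo3* and the wild type L*er* in which the reduced-dormancy mutants were made. *HUB1* encodes an E3 ligase for monoubiquitination of histone H2B and *RDO2* encodes the transcription elongation factor TFIIS, while no gene is named here for *rdo3*. Each mutant was a single allele, whole pods mix seeds with pod wall, and a change in the amount of one tissue cannot be told apart from a change of RNA per cell.

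In the last phase of seed filling the embryo stores 2S albumins and 12S and 7S globulins in vacuoles and triacylglycerol in oil bodies coated by oleosins and caleosins. It then makes late embryogenesis abundant (LEA) proteins, dehydrins, small heat shock proteins and antioxidant enzymes, which protect cells as water is lost. The pod wall at this age loses its photosynthetic function and prepares for opening along the dehiscence zone.

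A single gene name could be given to 123 members. The array annotation named 99 of them, and 24 were named through the list of genes that the study called different on these same samples. A further 2 members had several genes and 75 had none, among them the brightest probe set of all, 253895_at. It read 35426, 35735 and 34671 in *hub1-2*, 36477, 36985 and 38947 in *rdo2-1*, 35516, 37736 and 37486 in *rdo3*, and 36119, 35750 and 36470 in L*er*. The *rdo2-1* arrays lay above all *hub1-2* and L*er* arrays by a small margin, and *rdo3* overlapped with every other genotype. The mean L*er* intensity was 36113 at the first rank, 11608 at rank 50, 7188 at rank 100 and 4146 at rank 200. The edge was narrow. *AT2G23110*, a small LEA gene at rank 200, had a mean log2 intensity of 12.0172, and the first probe set left out, 254157_at, had 12.0157.

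Of the 123 named members, 90 could be placed in a functional class and 33 could not. Of the 90, 18 encoded LEA proteins and dehydrins, 8 proteases and vacuolar processing proteins, 8 transport and stress membrane proteins, 7 seed storage proteins, 7 redox enzymes, 7 enzymes and lectins of defence and specialized metabolism, 6 protease inhibitors, defensins and thionins, and 5 oil body proteins. All 7 storage protein genes and 8 of the 18 LEA genes were in the first 50 ranks. Smaller classes were cell wall and pod opening (4), translation and autophagy (4), photosynthesis (3), lipid mobilization and one-carbon enzymes (3), the major latex protein family (3), transcription factors and signalling (3), metallothioneins (2) and small heat shock proteins (2). Markers of tissues in the pod were also looked up. A marker counted as named when the array annotation or the study's list of genes called different gave its gene. Of 15 maturing seed markers 8 were named on the array in this way, and 6 of them were members. None of the 8 lay below the array median, but no green pod wall or dehiscence zone marker did either. The median therefore does not tell these tissues apart. Of 9 green pod wall markers listed, 2 were named on the array, *LHCA1* and *LHCA3*, and they were no members.

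The 200 members held 31.7% ± 0.0936 of the summed intensity of the 21685 eligible probe sets in *hub1-2*, 32.6% ± 0.181 in *rdo2-1*, 32.7% ± 0.362 in *rdo3* and 33.0% ± 0.516 in L*er* (SD, n = 3 each). Their measured intensities were close in all genotypes. The log2 difference from L*er* was within 0.25 for 140 of the 200 members in *hub1-2*, 158 in *rdo2-1* and 175 in *rdo3*. Of all tested probe sets, 49.1%, 55.1% and 72.7% were within 0.25 in the same order. The median size of the difference was 0.14 in *hub1-2*, 0.12 in *rdo2-1* and 0.10 in *rdo3* for the members, against 0.26, 0.22 and 0.14 for all tested probe sets in the same 3 comparisons. The members were also measured more tightly. The median SD of their log2 values between replicates was 0.06 in *hub1-2*, 0.11 in *rdo2-1*, 0.07 in *rdo3* and 0.09 in L*er*, against 0.13, 0.21, 0.16 and 0.19 for all tested probe sets in these genotypes. The median SE of the log2 difference between *hub1-2* and L*er* was 0.07 for the members and 0.15 for all tested probe sets. Whether very bright probe sets give smaller differences and spreads whatever their RNA does was not tested, here or by rank below.

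**Figure D1:**
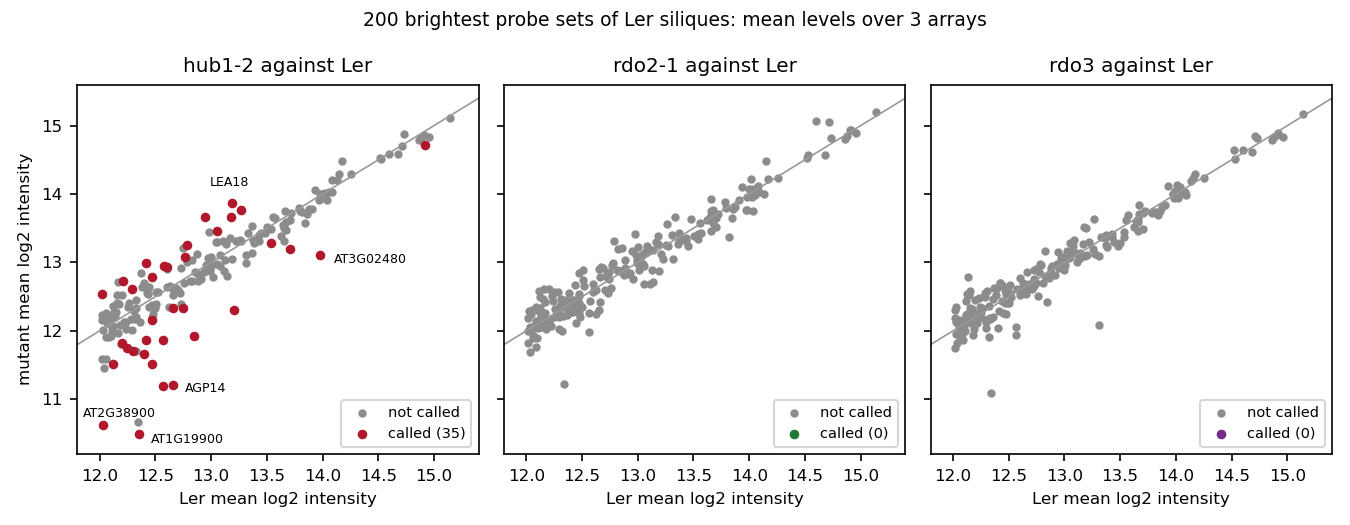
Mean log2 GC-RMA intensity of the 200 members in each mutant (vertical axis) against L*er* (horizontal axis), each over 3 arrays, with the line of equal level. Coloured points passed limma's test at an adjusted p under 0.01, 35 in *hub1-2* and 0 in *rdo2-1* and in *rdo3*. Most points lie along the line, and the largest departures in *hub1-2* are below it.

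A member was called when limma's Benjamini-Hochberg adjusted p, taken over all tested probe sets, was under 0.01. Against L*er*, *hub1-2* siliques had 14 members higher (7.0%) and 21 lower (10.5%), where 5.53% of all tested probe sets were higher and 3.92% lower. These counts rest on the same L*er* arrays that chose the members, a choice that favours falls. With a constant prior spread in limma, 0 members were higher and 9 lower. The rises of *LEA18*, *HSP17.6A*, *MT2A* and *AT1G29680* against L*er* were then not called (adjusted p = 0.01, 0.012, 0.012 and 0.013). When the 200 were instead chosen by their mean over *hub1-2* and L*er* together, 21 were higher and 15 lower. After median centring of the arrays the split of the 200 members was 7 higher and 22 lower. The count of 35 became 15, 16 and 13 without *hub1-2* replicate 1, 2 and 3, and 21 and 23 without L*er* replicate 1 and 3. Counts under such changes of limma's setting, list or arrays, here and below, are set beside no share over all tested probe sets. They show only how far the calls moved.

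No member was called in *rdo2-1* against L*er*, where 0.0819% of all tested probe sets were higher and 0.0614% lower. At an unadjusted p under 0.05, 52 members (26.0%) and 21.4% of all tested probe sets differed. The CyberT test called 3 members higher (1.5%) and 2 lower (1.0%), and 1.63% and 1.75% of all. No member was called in *rdo3* against L*er* either, where the background was 0.0205% higher and 0.0% lower. There, 47 members (23.5%) and 10.5% of all tested probe sets had an unadjusted p under 0.05. CyberT called 2 members higher (1.0%) and 4 lower (2.0%), and 0.764% and 0.246% of all. Without L*er* replicate 2, 1 member was called in *rdo2-1* against L*er*. The largest difference of a named member in these comparisons was that of *AT2G05580*, which gave log2 differences of -1.12 in *rdo2-1* and -1.25 in *rdo3* without passing the test.

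Comparisons between mutants used no L*er* array, so the values that chose the members do not enter them directly. Whether the normalization tied the arrays to each other is not stated. Between *hub1-2* and *rdo2-1*, 15 members were higher in *hub1-2* (7.5%) and 31 lower (15.5%), against 11.9% and 7.64% of all tested probe sets. The arrays of this pair differed by 0.12 in their mean median log2 value. After centring, 8 members were higher in *hub1-2* and 49 lower. The count of 46 became 28, 20 and 17 without *hub1-2* replicate 1, 2 and 3, and 25 without *rdo2-1* replicate 1. With the 200 chosen over both mutants, 18 were higher in *hub1-2* and 26 lower.

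Between *hub1-2* and *rdo3*, 14 members were higher in *hub1-2* (7.0%) and 24 lower (12.0%), against 6.48% and 4.74% of all tested probe sets. After centring, 6 were higher and 24 lower, and with the 200 chosen over both mutants 18 were higher and 18 lower. The count of 38 became 21, 16 and 18 without *hub1-2* replicate 1, 2 and 3, 20 without *rdo3* replicate 1 and 11 without *rdo3* replicate 3. No member was called between *rdo2-1* and *rdo3*, with backgrounds of 0.123% higher and 0.13% lower in *rdo2-1*. At an unadjusted p under 0.05, 57 members (28.5%) and 20.4% of all tested probe sets differed in this pair. CyberT called 8 members higher (4.0%) and 4 lower (2.0%), and 1.21% and 1.6% of all. The limma count was 2 without *rdo2-1* replicate 2 and 1 without *rdo3* replicate 1.

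Across the 3 comparisons with *hub1-2*, 71 members were called at least once (35.5%) and 129 never, and 25.0% of all tested probe sets were called at least once. Comparisons with *hub1-2* share its 3 arrays, so their counts are given side by side only. The members named from the study's own list made 16 of the 35 calls against L*er* with 24 members, the array-annotated ones 17 with 99, and those with no name 2 with 75. Presence on that list was itself decided on these arrays, so these members are no independent evidence of a direction. It held 53 members in all. The class counts below include members named this way, and a probe set with no name could not enter a class. Classes are small and assigned by hand, so their counts are descriptions, to be read beside the shares over all tested probe sets above.

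The 2S albumin genes, whose products are the main small storage proteins of the embryo, were among the brightest probe sets in every genotype. *SESA1* read 26691, 26341 and 27916 in *hub1-2*, 30836, 32025 and 30867 in *rdo2-1*, 29399, 31037 and 30605 in *rdo3*, and 31144, 31056 and 30605 in L*er*. All *hub1-2* arrays lay below all other arrays, by a small margin. The log2 difference from L*er* was -0.20 (SE 0.04, limma adjusted p = 0.0091), and against *rdo3* it was -0.17, which missed the threshold (adjusted p = 0.012).

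*SESA4*, another 2S albumin gene, read 30529, 22358 and 21909 in *hub1-2*, 34760, 32733 and 35393 in *rdo2-1*, 23952, 26972 and 25729 in *rdo3*, and 20953, 26392 and 27578 in L*er*. The *rdo2-1* arrays were the highest and overlapped with none of the others, while *hub1-2*, *rdo3* and L*er* overlapped. *SESA4* was 0.48 lower in *hub1-2* than in *rdo2-1* (SE 0.11, limma adjusted p = 0.0098). *SESA2* was 0.35 lower in *hub1-2* than in *rdo2-1* (adjusted p = 0.0073), and *SESA5* gave -0.19 in the same comparison and was not called.

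None of the 3 globulin genes with a name was called in a comparison with *hub1-2*. Of the first 50 members, 20 had no single gene name and could not enter a class. Whether further storage protein genes are among them is not known, so the counts here cover named genes only. *PAP85*, a vicilin-like 7S globulin gene, read 16503, 16426 and 16001 in *hub1-2*, 15581, 15760 and 16335 in *rdo2-1*, 15870, 16644 and 16584 in *rdo3*, and 16733, 15900 and 15722 in L*er*. Its 12 arrays spanned 0.10 on the log2 scale, the narrowest span of any named member. *AT1G03890*, of the 12S globulin type, and *AT2G28490*, a vicilin-like cupin gene, differed from L*er* by -0.26 and -0.09 in *hub1-2*. Of the 7 storage protein genes 1 was lower in *hub1-2* than in L*er*, 3 were lower than in *rdo2-1*, none differed from *rdo3*, and none was higher in any of these comparisons. Over all tested probe sets 3.92%, 7.64% and 4.74% were lower in the same order. The 4 *SESA* genes were named only through the study's list of genes called different on these samples. All of the storage calls fell on them, so the counts are no independent evidence of a direction. The median log2 differences of the 7 genes were -0.01 against L*er*, -0.19 against *rdo2-1* and -0.12 against *rdo3*, where all tested probe sets had medians of 0.02 in each comparison.

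Among the 5 oil body genes, 2 were lower in *hub1-2* than in L*er*, where 3.92% of all tested probe sets were. *ATS1*, which encodes the caleosin CLO1, read 10102, 10170 and 9759 in *hub1-2*, 10762, 10334 and 11601 in *rdo2-1*, 10313, 10650 and 10721 in *rdo3*, and 11663, 12153 and 11844 in L*er*. Its L*er* arrays were above every mutant array and its *hub1-2* arrays below all others. The log2 difference of -0.25 between *hub1-2* and L*er* passed the test, while the difference of -0.12 from *rdo2-1* did not. *AT3G05500*, a lipid droplet gene of the rubber elongation factor family, was lower in *hub1-2* by a log2 difference of -0.38 from L*er* and -0.42 from *rdo3*, both called. The oleosin genes *AT3G01570* and *AT2G25890* gave -0.24 and -0.16 against L*er* and were not called.

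LEA genes formed the largest class and moved in both directions in *hub1-2*. Against L*er*, 4 of 18 were higher and 1 lower, where 5.53% and 3.92% of all tested probe sets were. Against *rdo2-1*, 2 were higher and 1 lower, where 11.9% and 7.64% of all were. Against *rdo3*, 2 were higher and 5 lower, where 6.48% and 4.74% of all were. The class medians were -0.03, 0.00 and -0.04 in these comparisons, close to those of all tested probe sets. The brightest of them, *AT3G15670*, differed by no more than 0.06 on the log2 scale between *hub1-2* and any other genotype.

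*AT3G02480*, a small LEA-type gene, stood out among the 50 brightest probe sets. It read 8737, 9200 and 8510 in *hub1-2*, 14079, 13174 and 14482 in *rdo2-1*, 16152, 15781 and 15083 in *rdo3*, and 14727, 16630 and 17219 in L*er*. The *hub1-2* arrays were far below all the others, and the *rdo2-1* arrays also lay below those of L*er* and *rdo3*. On the log2 scale *hub1-2* differed by -0.87 from L*er* (SE 0.07, limma adjusted p = 0.00015), -0.66 from *rdo2-1* (adjusted p = 0.00019) and -0.83 from *rdo3* (adjusted p = 4.8e-05).

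*LEA18*, a group 4 LEA gene, went the other way. It read 13298, 15539 and 15967 in *hub1-2*, 7304, 8725 and 6614 in *rdo2-1*, 12123, 11101 and 11796 in *rdo3*, and 9122, 10295 and 8688 in L*er*. All *hub1-2* arrays were above all other arrays, with *rdo3* next and *rdo2-1* lowest, though *rdo2-1* overlapped with L*er* by a single array. The log2 difference of *hub1-2* was 0.67 from L*er* (SE 0.09, limma adjusted p = 0.0014), 0.99 from *rdo2-1* (adjusted p = 0.00031) and 0.35 from *rdo3* (adjusted p = 0.0096).

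A further 3 LEA genes were higher in *hub1-2* than in L*er*, *M10* by 0.49, the seed maturation protein gene *SMP1* by 0.47 and the dehydrin gene *XERO1* by 0.31. *SMP1* read 9264, 9856 and 10275 in *hub1-2*, 9442, 10570 and 10609 in *rdo2-1*, 7656, 8168 and 8085 in *rdo3*, and 6928, 7066 and 7200 in L*er*. Its *hub1-2* and *rdo2-1* arrays overlapped, and both lay above those of *rdo3* and L*er*. The difference between *rdo2-1* and L*er* was 0.53, larger than that of *hub1-2*, but was not called by limma. Against *rdo3*, the LEA genes *AT4G36600*, *AT5G44310*, *AT3G53040* and *AtLEA4-1* were lower in *hub1-2* by log2 differences of -0.58, -0.38, -0.31 and -0.18. None of these 4 was called against L*er* or *rdo2-1*.

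Both small heat shock genes, which encode chaperones made in drying seeds, were brighter in *hub1-2* on every array. *HSP17.6A* read 12649, 13050 and 13086 in *hub1-2*, 9189, 10313 and 8299 in *rdo2-1*, 9681, 8523 and 9025 in *rdo3*, and 9552, 7086 and 7237 in L*er*. Its *hub1-2* arrays overlapped with no other genotype, and the other genotypes overlapped with each other. In *hub1-2* it was higher by 0.71 on the log2 scale than in L*er* (SE 0.11, limma adjusted p = 0.0025), by 0.49 than in *rdo2-1* and by 0.51 than in *rdo3*, all called. The call against L*er* was lost without *hub1-2* replicate 1, 2 or 3 (adjusted p = 0.011, 0.012 and 0.016). *HSP17.4* differed by 0.45 from L*er* without a call and by 0.36 from *rdo3* with one. Both genes were on the study's list.

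The stress-linked metallothionein gene *MT2A* read 7768, 7809 and 8973 in *hub1-2*, 5379, 6163 and 5295 in *rdo2-1*, 6626, 6574 and 6738 in *rdo3*, and 5369, 5383 and 5689 in L*er*. The *hub1-2* arrays were above all others. The log2 difference was 0.58 from L*er* and 0.54 from *rdo2-1*, both called, and 0.30 from *rdo3*, which was not (limma adjusted p = 0.012). *MT1C*, the other metallothionein member, gave 0.21 against L*er* and was not called in any comparison. Among 7 redox genes only the glutathione S-transferase gene *GSTU19* was called, higher in *hub1-2* by 0.33 against L*er*, 0.34 against *rdo2-1* and 0.38 against *rdo3*. Over all tested probe sets 5.53%, 11.9% and 6.48% were higher in the same order. The remaining redox members, among them the superoxide dismutase family gene *AT3G56350* and the aldo-keto reductase gene *AT5G01670*, were called in no comparison with *hub1-2*.

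Enzymes of the glyoxylate cycle, which turns stored lipid into sugar after germination, were bright before the seeds were shed. *MLS*, malate synthase, read 11487, 10702 and 11505 in *hub1-2*, 6352, 7314 and 6110 in *rdo2-1*, 9365, 10450 and 10258 in *rdo3*, and 8482, 9200 and 7871 in L*er*. The order of the arrays was *hub1-2* above *rdo3*, *rdo3* above L*er* and L*er* above *rdo2-1*, with no overlap between neighbours. The log2 difference of *hub1-2* was 0.40 from L*er* (SE 0.07, limma adjusted p = 0.0048) and 0.77 from *rdo2-1* (adjusted p = 0.00026), and that from *rdo3*, 0.16, was not called (adjusted p = 0.061). *ICL*, isocitrate lyase, showed the same order of means and was called only against *rdo2-1*, at 0.43.

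The members held 8 genes for proteases and vacuolar processing, whose products act on seed proteins. In *hub1-2*, 1 of them was lower than in L*er*, 2 were lower than in *rdo2-1*, and 1 was higher and 1 lower than in *rdo3*. Over all tested probe sets 3.92%, 7.64% and 4.74% were lower in the same order, and 6.48% were higher than in *rdo3*. *BETA-VPE*, the seed vacuolar processing enzyme that cleaves storage protein precursors, gave -0.02 between *hub1-2* and L*er* and was called in no comparison. *APA1*, an aspartic protease gene, gave 0.01 against L*er* without a call and was 0.23 higher in *hub1-2* than in *rdo3* (limma adjusted p = 0.0044). *AT3G51730*, a saposin B domain gene, was lower in *hub1-2* than in *rdo2-1* by a log2 difference of -0.34 (limma adjusted p = 0.0066) and was not called in the other comparisons. *AT1G62290*, another aspartic protease gene, read 2639, 2080 and 2355 in *hub1-2*, 4814, 4106 and 5926 in *rdo2-1*, 3961, 4367 and 4523 in *rdo3*, and 5728, 6352 and 6137 in L*er*. The *hub1-2* arrays were far below every other array and the L*er* arrays were near or at the top. Log2 differences of *hub1-2* were -1.37 from L*er* (SE 0.09, limma adjusted p = 0.00011), -1.06 from *rdo2-1* and -0.87 from *rdo3*, all called. Its rank of 123 in L*er* became 449 in *hub1-2*.

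Protease inhibitors and defensins, small secreted peptides that guard the seed, split in direction. *AT2G38900*, a serine protease inhibitor gene of the potato type I family, read 1470, 1638 and 1620 in *hub1-2*, 3553, 2906 and 3552 in *rdo2-1*, 3685, 3988 and 4244 in *rdo3*, and 4143, 3887 and 4535 in L*er*. The *hub1-2* arrays were below all others. It was among the last 5 members by rank in L*er* and ranked 756 in *hub1-2*. Its *hub1-2* level differed on the log2 scale by -1.41 from L*er* (SE 0.09, limma adjusted p = 9.9e-05), -1.08 from *rdo2-1* and -1.33 from *rdo3*, all called.

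*LCR67*, which encodes the defensin PDF1.1, read 13584, 14172 and 14184 in *hub1-2*, 11555, 12758 and 12129 in *rdo2-1*, 12688, 12481 and 12948 in *rdo3*, and 10506, 9748 and 9338 in L*er*. Every mutant array was above every L*er* array and the *hub1-2* arrays were the highest. Only *hub1-2* against L*er* was called, at 0.50 (SE 0.06, limma adjusted p = 0.00082). The cystatin gene *CYSB* was higher in *hub1-2* by 0.38 against L*er*, 0.52 against *rdo2-1* and 0.34 against *rdo3*. The defensin gene *PDF2.1* and the thionin family gene *AT2G15010* gave -0.09 and -0.15 against L*er* and were called in no comparison.

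Of the 4 cell wall and pod opening genes, 3 were lower in *hub1-2* than in L*er* and none was higher. Of all tested probe sets, 3.92% were lower and 5.53% higher. *AGP14* and *XYP1* were named only through the study's list. *AGP14*, an arabinogalactan protein gene, read 2048, 2463 and 2658 in *hub1-2*, 7291, 6130 and 7814 in *rdo2-1*, 7580, 7317 and 7449 in *rdo3*, and 5449, 6122 and 8140 in L*er*. All *hub1-2* arrays were far below those of the other genotypes, among which L*er* overlapped with both *rdo2-1* and *rdo3*. Differences of *hub1-2* on the log2 scale were -1.45 from L*er* (SE 0.15, limma adjusted p = 0.00055), -1.57 from *rdo2-1* and -1.65 from *rdo3*, all called. The xylogen gene *XYP1* was lower at -0.60, -0.50 and -0.43 in the same order and the proline-rich protein gene *AT5G59170* at -0.51 against L*er*.

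*ADPG1* encodes a polygalacturonase that dissolves cell walls in the dehiscence zone. It read 9561, 9730 and 11399 in *hub1-2*, 16418, 15240 and 14877 in *rdo2-1*, 12901, 12016 and 13240 in *rdo3*, and 13856, 11909 and 13091 in L*er*. The *hub1-2* arrays were lowest and the *rdo2-1* arrays highest, both clear of *rdo3* and L*er*, which overlapped. Only *hub1-2* against *rdo2-1* was called, at -0.60 (SE 0.08, limma adjusted p = 0.00071). The values against L*er* and *rdo3* were -0.34 and -0.32 (adjusted p = 0.019 and 0.015). Against *rdo2-1* all 4 members of the cell wall class were lower in *hub1-2*, and against *rdo3* 2 were. Over all tested probe sets 7.64% and 4.74% were lower in these comparisons. Among the dehiscence zone markers that are no members, *ALC* averaged 21.4 in *hub1-2*, 108 in *rdo2-1*, 43.7 in *rdo3* and 48.6 in L*er*. *SHP2* averaged 131 in *hub1-2*, 248 in *rdo2-1*, 264 in *rdo3* and 222 in L*er*. Both had their lowest mean in *hub1-2*, as *ADPG1* did, and their part in the cell wall differences was not tested.

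All 3 photosynthesis members gave negative differences in *hub1-2*. *RCA*, rubisco activase, read 3662, 3357 and 2810 in *hub1-2*, 5017, 4436 and 6306 in *rdo2-1*, 4584, 3970 and 4180 in *rdo3*, and 5518, 4422 and 6490 in L*er*. Its *hub1-2* arrays were below all others. It was called against L*er* at -0.73 and against *rdo2-1* at -0.67, but not against *rdo3*, at -0.38. The photosystem II gene *PSBR* was called only against *rdo2-1*, at -0.78, and the plastid gene *psbM* against L*er*, at -0.32, and *rdo3*, at -0.41. The 2 green pod wall markers named on the array summed to 1012 to 1624 in *hub1-2*, 1083 to 2656 in *rdo2-1*, 1016 to 2281 in *rdo3* and 1689 to 3000 in L*er*. Their part in these differences was not tested.

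Of the 8 transport and stress membrane genes, 3 were lower in *hub1-2* than in L*er* and none higher. Among all tested probe sets, 3.92% were lower and 5.53% higher. *PIP2A*, an aquaporin gene, read 3080, 3029 and 2680 in *hub1-2*, 6099, 4066 and 5590 in *rdo2-1*, 5411, 4246 and 4908 in *rdo3*, and 4172, 4095 and 5184 in L*er*. The *hub1-2* arrays were below all others and the other genotypes overlapped. It was called against L*er* at -0.61, against *rdo2-1* at -0.82 and against *rdo3* at -0.72. *SWEET11*, which exports sucrose from the seed coat to the embryo, was lower at -0.54 against L*er* and -0.42 against *rdo3*. *AT1G04560*, an AWPM-19-like membrane protein gene, differed by at most 0.05 between *hub1-2* and any other genotype.

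**Figure D2:**
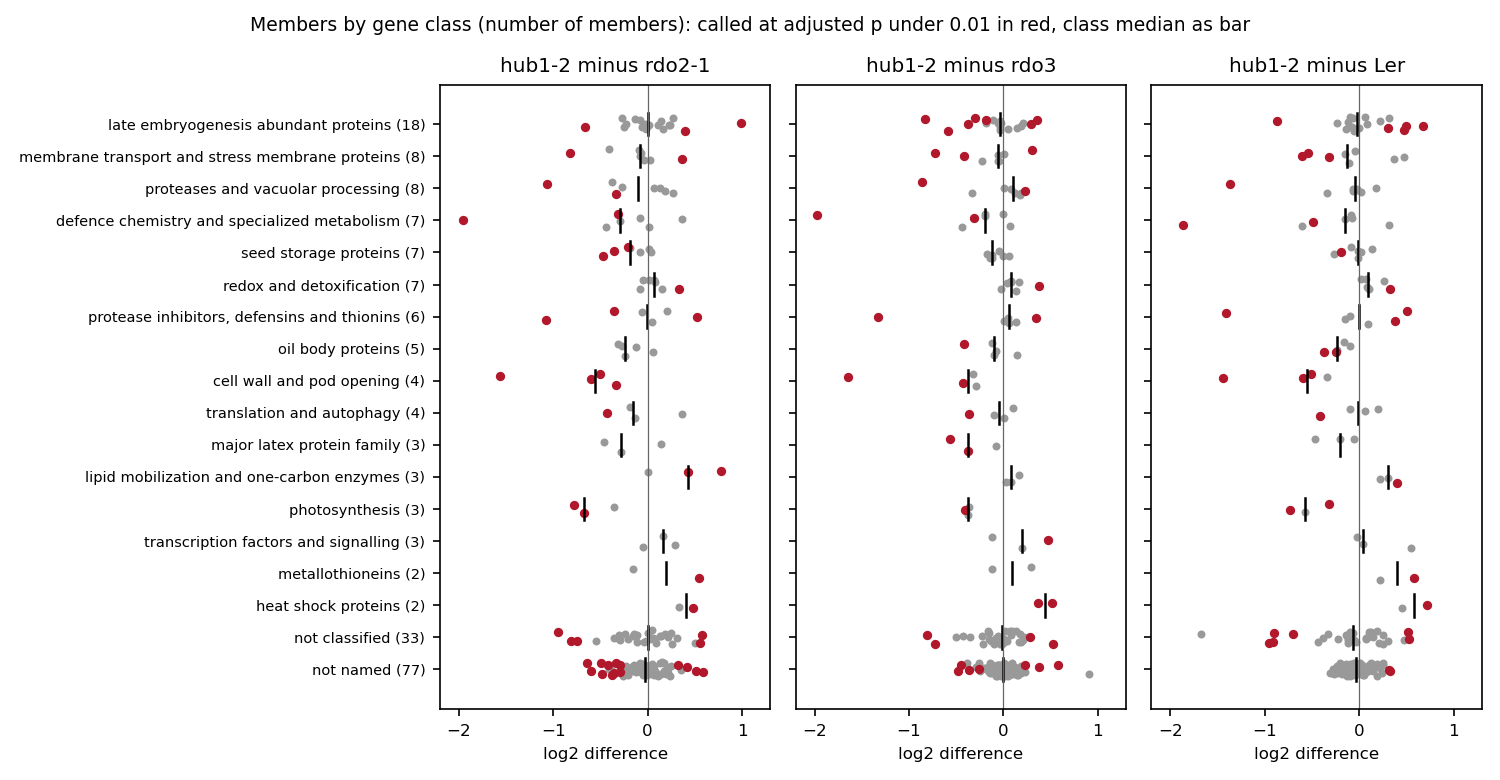
Log2 difference of each member (horizontal axis) by gene class (rows, number of members in brackets) for *hub1-2* minus *rdo2-1*, minus *rdo3* and minus L*er*, with the class median as a bar. Red points passed limma's test. The cell wall and photosynthesis medians lie furthest left of 0 in all 3 panels. Those of the oil body, storage, major latex, defence, membrane and translation classes also lie left in all 3. The median of the small heat shock genes lies right of 0 in all 3, as do those of the redox, lipid mobilization, metallothionein and transcription factor classes. The LEA median is near 0 with calls on both sides.

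The largest fall of a called member was that of *AT1G19900*, a glyoxal oxidase family gene. It read 1434, 1496 and 1388 in *hub1-2*, 5543, 4297 and 7270 in *rdo2-1*, 5112, 5924 and 5923 in *rdo3*, and 3980, 4898 and 7414 in L*er*. The *hub1-2* arrays lay close together and far below all others, which overlapped. The log2 difference of *hub1-2* was -1.87 from L*er* (SE 0.19, limma adjusted p = 0.0005), -1.95 from *rdo2-1* (adjusted p = 9.8e-05) and -1.97 from *rdo3* (adjusted p = 7.4e-06). Its rank of 146 in L*er* became 841 in *hub1-2*, the lowest rank reached by any member in any mutant.

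*AT1G19900* was placed by hand in the class of defence and specialized metabolism, which is no statement of what this gene does. The other members of that class moved less. *BGLU19*, a beta-glucosidase gene at rank 33, differed by -0.08 between *hub1-2* and L*er*, and its value of -0.45 in *rdo2-1* against L*er* was not called. *SNG1*, the sinapoyltransferase of sinapoylmalate synthesis, was lower in *hub1-2* than in L*er* by a log2 difference of -0.49. Of the 3 major latex protein genes, *AT1G14940* and *AT1G14930* were lower in *hub1-2* than in *rdo3*, at -0.37 and -0.56, and *AT1G14950* was not called. *ELF5A-3*, which encodes the translation factor eIF5A, was lower in *hub1-2* than in every other genotype, at -0.41 against L*er*, -0.43 against *rdo2-1* and -0.36 against *rdo3*. *ATAF1*, a NAC transcription factor gene, was called only against *rdo3*, where it was 0.47 higher in *hub1-2*.

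Of the named members with no class, *ATS3*, an embryo-specific gene, read 5563, 4970 and 4672 in *hub1-2*, 9746, 7511 and 9579 in *rdo2-1*, 8846, 8478 and 9210 in *rdo3*, and 9259, 10002 and 9106 in L*er*. Its *hub1-2* arrays were below all others, at log2 differences of -0.90 from L*er*, -0.81 from *rdo2-1* and -0.81 from *rdo3*, all called. *AT3G62730* was lower at -0.96, -0.75 and -0.73 in the same order. *AT1G29680* was higher, reading 6954, 6862 and 6568 in *hub1-2*, 4545, 4985 and 4166 in *rdo2-1*, 4876, 4491 and 4802 in *rdo3*, and 4731, 4970 and 4497 in L*er*. Its *hub1-2* arrays were above all others, and it was called at 0.52, 0.58 and 0.53 in that order. *AT3G63040* gave log2 differences of -0.70 in *hub1-2*, -0.58 in *rdo2-1* and -0.62 in *rdo3* against L*er*, and only the first was called.

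**Figure D3:**
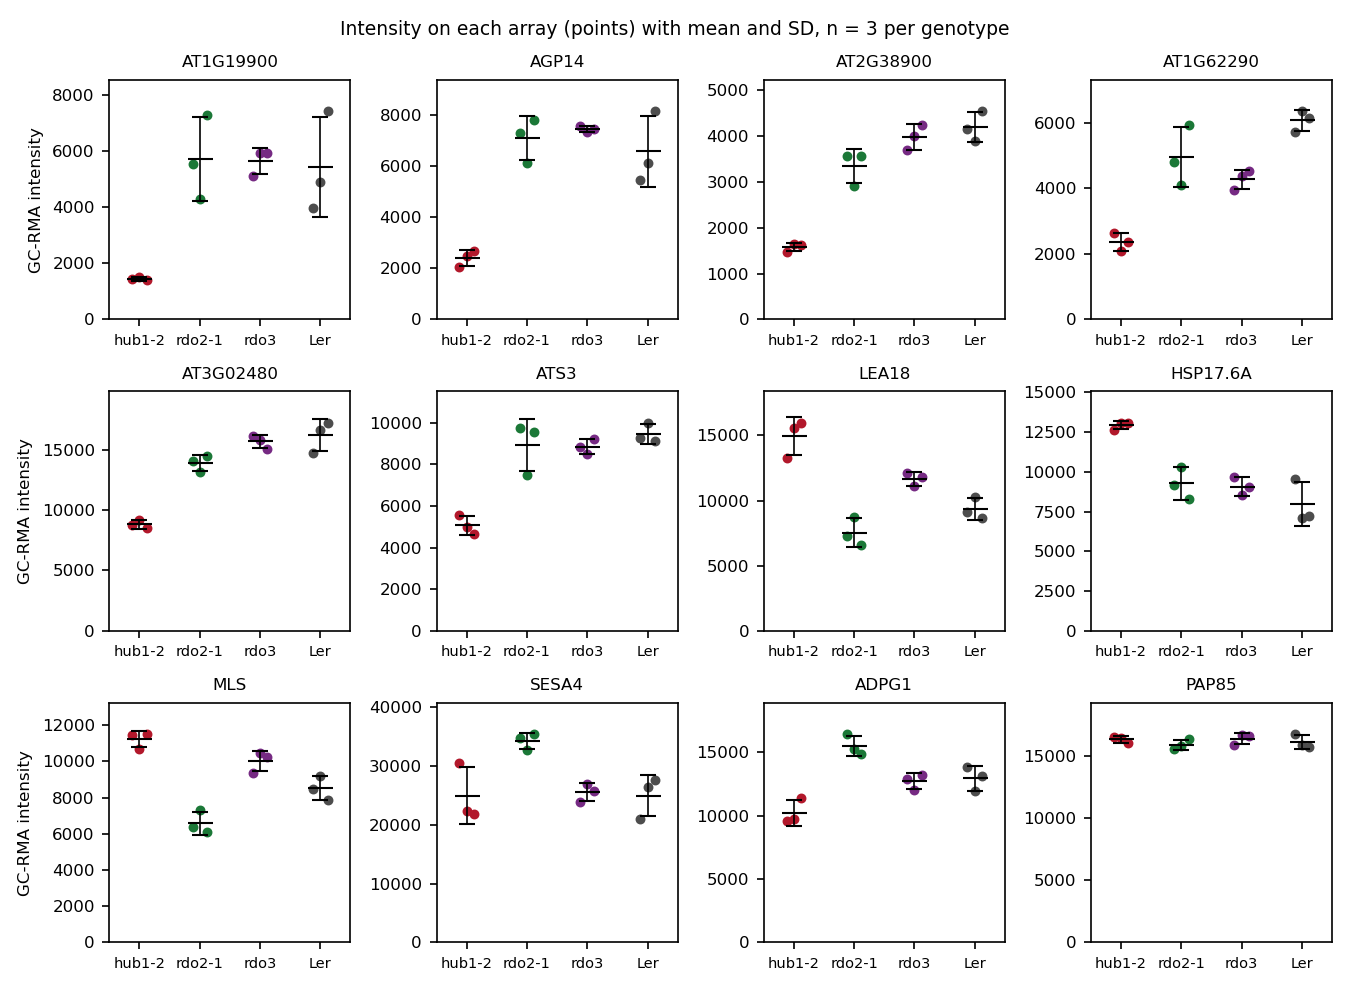
GC-RMA intensity (vertical axis, from 0) on each of the 3 arrays of *hub1-2*, *rdo2-1*, *rdo3* and L*er* for 12 members, with mean and SD. In the first 6 panels the *hub1-2* arrays are below all others, in *LEA18*, *HSP17.6A* and *MLS* they are above all others, *SESA4* is highest in *rdo2-1*, and *PAP85* is level.

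Called the same way in *hub1-2* against each of the other 3 genotypes were 16 members, 6 higher (3.0%) and 10 lower (5.0%), where 3.09% and 1.69% of all tested probe sets were. The 3 comparisons share the *hub1-2* arrays, and L*er* chose the members. The higher ones were *LEA18*, *HSP17.6A*, *GSTU19*, *CYSB*, *AT1G29680* and the unnamed 256245_at. The lower ones were *AT3G02480*, *ATS3*, *ELF5A-3*, *AGP14*, *AT1G62290*, *AT3G62730*, *AT1G19900*, *XYP1*, *PIP2A* and *AT2G38900*. The probe set 256245_at read 6401, 6347 and 6093 in *hub1-2*, 3946, 4681 and 3985 in *rdo2-1*, 4407, 4116 and 4120 in *rdo3*, and 5362, 4933 and 4773 in L*er*. By range alone, with no test, the *hub1-2* arrays lay above all other 9 arrays in 21 of the 200 members and below them in 28. Over all tested probe sets the shares above and below were 14.6% and 8.69%. The L*er* arrays that chose the members are among the 9, so nothing is read from these shares.

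Against L*er* in *hub1-2*, 4 of the first 50 members were called, 7 of the next 50, 16 of the 50 after those and 8 of the last 50. Over all tested probe sets 5.53% were called higher and 3.92% lower. The median size of the log2 difference in these 4 bands was 0.08, 0.13, 0.24 and 0.18, lowest in the first and highest in the third. None of the first 50 members was higher in *hub1-2* than in L*er* or *rdo2-1*, while 2 were higher than in *rdo3*. In *rdo2-1* and *rdo3* against L*er* the median was 0.07 in the first 50, and 0.16 and 0.14 in the last 50.

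Most members stayed among the 200 brightest of each mutant. They were 173 in *hub1-2*, 182 in *rdo2-1* and 186 in *rdo3*, and 163 in all 4 genotypes. On single arrays the number was 169 to 175 in *hub1-2*, 175 to 181 in *rdo2-1*, 176 to 188 in *rdo3* and 186 to 191 in L*er* itself. No member of the first 50 left in any mutant, and of the 27 that left in *hub1-2* only *ATSDI1*, named for sulphur deficiency, came from the first 100, at rank 97 in L*er* and 225 in *hub1-2*. *ATSDI1* read 3396, 4956 and 3524 in *hub1-2*, 7435, 6383 and 9001 in *rdo2-1*, 6713, 4224 and 5909 in *rdo3*, and 7032, 7416 and 7666 in L*er*. Of the members, 195 were still among the 400 brightest in *hub1-2* and 199 in *rdo2-1* and in *rdo3*. Rank correlation with L*er* over the 200 members was 0.91 for *hub1-2*, 0.94 for *rdo2-1* and 0.94 for *rdo3*, given as a description of genes chosen in L*er*.

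The probe sets that took their places in *hub1-2* had been just below the edge or well outside it. The brightest was *AtMT4b*, a seed metallothionein gene at rank 89 in *hub1-2* and 223 in L*er*, with 7979 ± 677 in *hub1-2* and 3867 ± 485 in L*er*. Its relative *AtMT4a* had 5548 ± 567 in *hub1-2* and 3391 ± 410 in L*er*, at ranks 136 and 273. *FER1*, a ferritin gene, had 4627 ± 1379 in *hub1-2* and 1970 ± 190 in L*er*, at ranks 182 and 565 (SD, n = 3 each). These probe sets were picked for their *hub1-2* level, so no test is given. In *rdo3* the brightest named newcomer was *ELI3-2*, with 7836 ± 1031 in *rdo3* and 4020 ± 510 in L*er*. Some newcomers were shared. *ELI3-2* also entered in *hub1-2*, at rank 108, and in *rdo2-1*, at rank 178. *AtMT4b* also entered in *rdo3*, at rank 140, and in *rdo2-1*, at rank 191, and *AtMT4a* in *rdo2-1*, at rank 200.

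Over the 12 arrays the median span of a member was 0.48 on the log2 scale. For 109 members it was under 0.5 and for 17 over 1. After *PAP85*, the narrowest spans of named members were 0.15 in *AT5G45690* and 0.15 in *AT1G04560*. The widest was 2.79 in *AT2G05580*, which read 1191, 1525 and 2379 in *hub1-2*, 2077, 2950 and 2217 in *rdo2-1*, 2517, 2186 and 1905 in *rdo3*, and 5831, 2914 and 8218 in L*er*. Its L*er* arrays had the largest SD of any named member, 0.76 on the log2 scale, and its log2 difference of -1.67 in *hub1-2* against L*er* was not called (SE 0.36, limma adjusted p = 0.013). The unnamed 248918_at, singled out after its values were seen, read 10058, 10119 and 5364 in *hub1-2*, 11839, 9428 and 11408 in *rdo2-1*, 7035, 2690 and 4398 in *rdo3*, and 11427, 9012 and 10182 in L*er*. Its *rdo3* arrays were low and widely spread, and its log2 difference of -1.22 in *rdo3* against L*er* was not called (adjusted p = 0.16).

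**Figure D4:**
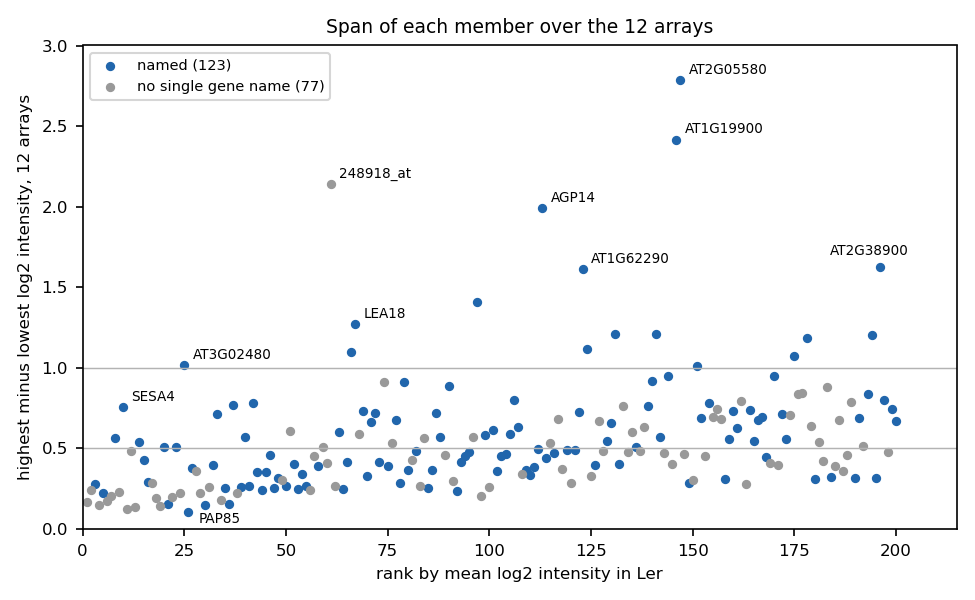
Highest minus lowest log2 intensity over the 12 arrays (vertical axis) of each member, by its rank in L*er* (horizontal axis), with lines at 0.5 and 1. Spans of the first 50 ranks stay near or below 1, and the widest spans, *AT2G05580*, *AT1G19900* and the unnamed 248918_at, lie at ranks 147, 146 and 61.

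Some members were neighbours on the chromosome. In the gene order of the TAIR10.1 assembly 122 named members could be placed, and 18 of them had another member within 3 genes, in 10 pairs of which 8 were directly adjacent. The 2S albumin genes *SESA1*, *SESA2* and *SESA4* formed one such run and the major latex protein genes *AT1G14930*, *AT1G14940* and *AT1G14950* another. Adjacent members did not always share a value. *AT2G38900* gave -1.41 in *hub1-2* against L*er* and the next gene, *AT2G38905*, a small membrane protein gene, gave -0.32, both called. *AT3G02480* gave -0.87 and was called, and its neighbour *SAMDC*, S-adenosylmethionine decarboxylase of polyamine synthesis, gave -0.15 and was not. The adjacent dehydrin genes *XERO1* and *LTI30* gave 0.31, called, and 0.08, not called.

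Marker levels of the tissues in the pod were set beside these results. The 8 maturing seed markers summed to 136280 to 149550 in *hub1-2*, 158980 to 162140 in *rdo2-1*, 141860 to 147120 in *rdo3* and 134730 to 143470 in L*er*. The *rdo2-1* sums were the highest, and 6 of the 8 markers in them are members. Of these members, *SESA1*, *SESA2*, *SESA4*, *SESA5* and *GEA6* were named only through the study's list of genes called different on these samples. The sums are therefore no independent evidence of a direction. The markers did not move as one in *rdo2-1*. Of those that are no members, the oleosin gene *OLEO3* averaged 1477 in *hub1-2*, 1203 in *rdo2-1*, 1322 in *rdo3* and 1842 in L*er*, and *AT4G36700* averaged 1615 in *hub1-2*, 1400 in *rdo2-1*, 2529 in *rdo3* and 2314 in L*er*. The 3 dehiscence zone markers named on the array, of 5 listed, summed to 9716 to 11574 in *hub1-2*, 15264 to 16804 in *rdo2-1*, 12303 to 13573 in *rdo3* and 12159 to 14123 in L*er*, nearly all of it *ADPG1*. Pollen markers were low, at 32.1 to 127 in *hub1-2*, 64.9 to 198 in *rdo2-1*, 37.4 to 95.8 in *rdo3* and 36.5 to 39.0 in L*er*. *HUB1* itself, whose probe set is no member, read 180.5 ± 27.7 in *hub1-2*, 41.3 ± 6.22 in *rdo2-1*, 62.4 ± 20.2 in *rdo3* and 78.5 ± 9.73 in L*er* (SD, n = 3 each), which does not serve as a check of the *hub1-2* label. The part of tissue makeup in the members' differences was not tested.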

How the data were processed

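The deposited table gave linear GC-RMA intensity values of 12 ATH1 arrays, which the authors background-corrected, normalized and summarized per probe set in Expressionist Pro. Which arrays were normalized together is not stated, and no detection p was used here. Values were taken to log2 with no pseudocount. Control probe sets were dropped, the others were ranked by their second-highest value among the 9 arrays of *hub1-2*, *rdo2-1* and L*er*, and the first 14655, the number the study tested, were kept. All 200 members passed it. Each of 6 comparisons was fitted over its 6 arrays with limma 3.58.1 in R 4.3.3 (eBayes with a trend), with Benjamini-Hochberg adjustment over all kept probe sets and a call at an adjusted p under 0.01. CyberT was rewritten as an alternative (window 101, prior weight 10). Both were tested on simulated data. The number of arrays limits the precision, and the p-values measure the spread between 3 silique samples per genotype.

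Members and lists were chosen with earlier results of these data known. The rule for named members took the 12 brightest, the called members of largest rise or fall per comparison, the 3 brightest of each class, the edge of the list and the members with the smallest span and the largest SD. Other members are named where a count of their class or a range needs them, a choice made with their values in view. A list of classes by search words matched too little of the array annotation, so classes were assigned by hand from gene names and known functions. The replicate numbers of the labels did not pair the samples: correlations of same-numbered deviations ran between -0.18 and 0.39, and in no comparison were all over 0.1.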

Additional observations from a re-analysis of the deposited data

How the results depend on the processing

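The 26 comparisons of named members were picked as the called ones of largest rise or fall. Each under 13 alternatives, not counting the looser threshold, 309 results kept the direction and the call, 29 lost the call and 0 reversed. The number of members in each mutant's own 200 brightest stayed within 170 to 175 in *hub1-2*, 179 to 182 in *rdo2-1* and 182 to 187 in *rdo3* when each array was left out in turn, and moved by no more than 2 under the other alternatives. The number of called members was less stable. With a constant prior spread it was 9 in *hub1-2* against L*er* (0 higher and 9 lower), 17 against *rdo2-1* (4 and 13) and 11 against *rdo3* (3 and 8). In 1 fit over all 12 arrays it was 25 in *hub1-2* against *rdo3*, 9 in *rdo2-1* against L*er* and 7 in *rdo2-1* against *rdo3*. CyberT called 5 in *rdo2-1* against L*er*, 6 in *rdo3* against L*er* and 12 in *rdo2-1* against *rdo3*. In this last pair, centring, quantile normalization and no filter on low values called 1, 1 and 2.

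At an adjusted p under 0.05 the calls were 67, 78 and 66 in *hub1-2* against L*er*, *rdo2-1* and *rdo3*, 11 in *rdo2-1* against L*er*, 1 in *rdo3* against L*er* and 10 in *rdo2-1* against *rdo3*. With the 100 brightest instead of 200 they were 11, 19 and 13 in *hub1-2* against L*er*, *rdo2-1* and *rdo3*, from a list of fewer members. With the replicate number as a block, which the data do not show to pair the samples, they were 23 in *hub1-2* against L*er*, 20 against *rdo3*, 2 in *rdo2-1* against L*er* and 1 in *rdo2-1* against *rdo3*. Leaving out 1 array in turn gave 13 to 30, 17 to 50 and 11 to 42 in *hub1-2* against L*er*, *rdo2-1* and *rdo3*, 0 to 1 in *rdo2-1* against L*er*, 0 in *rdo3* against L*er* and 0 to 2 in *rdo2-1* against *rdo3*. Apart from the shorter list and the fewer arrays, the cause was not tested. No share over all tested probe sets was taken at the settings of this section other than CyberT. None of these counts is read as an excess.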
